A study of Homo sapiens with 20 samples.

Results

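Interferon-stimulated genes and genes of MHC class I antigen presentation were followed in 10 human cell lines of T-ALL, the acute lymphoblastic leukemia of T cells, with and without an inhibitor of NOTCH signalling. The set was chosen by gene symbol and held 42 genes: transcription factors that act on interferon response elements, antiviral effectors, nuclear body proteins, and the class I light chain, peptide transporter and heavy chains. Of these, 41 had a probe set annotated to 1 gene, and 38 were bright enough to be tested among 7695 genes in all. IFIT2, IFI27 and IFI44L lay under the filter on low signal, and STAT2 was not analysed here.

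The study used RPMI8402, PF382, KOPTK1, HPB-ALL, DND41, CUTLL1 and ALL-SIL, and beside these MOLT3, CCRF-CEM and P12-ICHIKAWA. Per the series' description, NOTCH1 carries an activating mutation in every line. Each line had 1 array after CompE, a gamma-secretase inhibitor given at 100 nM for 72 h, and 1 array after the vehicle DMSO for 72 h. The labels name no other agent in either group, and no interferon. For MOLT3, CCRF-CEM and P12-ICHIKAWA the growth medium named for the DMSO culture differs from that named for the CompE culture. The name given there is the same as that of a cell line, RPMI8402, so it may be a labelling error. Whether the medium itself differed is not settled, and calls that are lost or gained without these 3 lines are given with that value.

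Type I interferons bind the receptor IFNAR1/IFNAR2, whose kinases JAK1 and TYK2 phosphorylate STAT2. STAT2 acts with IRF9 in the complex ISGF3, which binds interferon-stimulated response elements (ISRE) in the promoters of antiviral genes. Interferon gamma acts on gamma-activated sites and induces IRF1, which drives much of the class I pathway. In that pathway TAP1 and TAP2 pump peptides into the endoplasmic reticulum, tapasin (TAPBP) holds the class I heavy chain at the transporter, and B2M is the light chain of the finished complex. Many of these genes also keep a basal level without added interferon.

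Promoters are shown because many of them, though not all, carry the sequence that the pathway acts on. RefSeq promoters (GRCh38.p14, 250 bases before to 50 after a listed transcript start) were at hand for 33 of the 42 genes, with 46 windows in all, since some genes have several starts. The ISRE core was searched on both strands as GAAA, any 2 bases and GAAA again. It was present in 23 of the 33 (69.7%), against 1195 of all 27305 genes with a promoter (4.38%). By window rather than by gene it was in 27 of 46 member windows (58.7%), against 3.57% of all 35116 windows. The gamma-activated site TTCNNNGAA, on both strands, was in 10 of the 33 (30.3%), against 9.38% of all genes. Of the 5 members with both motifs, 4 had matches that overlapped each other. By role, the ISRE core was in all 3 IFIT genes and all 5 class I genes with a promoter entry. Among the antiviral effectors outside the sensor, IFIT and nuclear body roles it was in 8 of 8. It was found in 3 of 5 nucleic acid sensors and their effectors, and not in OAS1 or ADAR. It was in 4 of 9 nuclear body and other induced genes, and in 0 of 3 transcription factors. The members were chosen as interferon-stimulated genes, so these shares are a description, and a match of letters is no measure of binding. No entry was at hand for IRF2, IRF7, OAS2, OASL, IFIT2, IFITM2, MX2, TRIM22 and HLA-E.

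Windows of 30 bases around a match are given for 10 genes, picked after their values were seen so that each role below has examples. They read 5′ to 3′ along the gene's own strand, and the capitals mark the ISRE core or, where it runs the other way, its reverse complement, TTTC, any 2 bases and TTTC.
ISG15, chr1:1013374-1013403, plus strand: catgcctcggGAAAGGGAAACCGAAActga
IFIT1, chr10:89392497-89392526, plus strand: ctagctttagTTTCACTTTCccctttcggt
OAS3, chr12:112938321-112938350, plus strand: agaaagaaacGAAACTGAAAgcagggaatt
EIF2AK2, chr2:37156967-37156996, minus strand: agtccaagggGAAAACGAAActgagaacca
MX1, chr21:41420559-41420588, plus strand: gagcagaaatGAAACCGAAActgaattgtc
BST2, chr19:17405741-17405770, minus strand: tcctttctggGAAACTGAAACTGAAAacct
B2M, chr15:44711363-44711392, plus strand: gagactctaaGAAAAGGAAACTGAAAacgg
TAP1, chr6:32853819-32853848, minus strand: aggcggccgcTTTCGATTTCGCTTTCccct
TAP2, chr6:32838778-32838807, minus strand: ctggggaagcGAAAGCGAAAgctgcccgag
TAPBP, chr6:33314079-33314108, minus strand: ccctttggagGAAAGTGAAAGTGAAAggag

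Whole promoter windows are shown for the 3 genes with an ISRE core whose level differed most between lines, GBP1, ISG20 and IFITM1, described further on. The ISG20 window lies at a transcript start inside the annotated gene. The capitals again mark the ISRE core or its complement.
GBP1, chr1:89065159-89065458, minus strand: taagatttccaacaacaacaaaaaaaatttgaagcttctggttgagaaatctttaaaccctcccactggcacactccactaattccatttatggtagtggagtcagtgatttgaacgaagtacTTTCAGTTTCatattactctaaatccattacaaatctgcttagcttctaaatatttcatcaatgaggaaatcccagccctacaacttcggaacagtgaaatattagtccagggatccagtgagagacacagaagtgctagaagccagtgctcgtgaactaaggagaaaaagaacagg
ISG20, chr15:88638766-88639065, plus strand: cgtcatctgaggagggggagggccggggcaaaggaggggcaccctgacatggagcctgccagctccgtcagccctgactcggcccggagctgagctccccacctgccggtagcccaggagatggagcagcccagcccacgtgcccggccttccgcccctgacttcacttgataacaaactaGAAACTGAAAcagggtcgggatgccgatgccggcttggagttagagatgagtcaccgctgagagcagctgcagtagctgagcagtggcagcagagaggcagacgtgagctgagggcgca
IFITM1, chr11:313790-314089, plus strand: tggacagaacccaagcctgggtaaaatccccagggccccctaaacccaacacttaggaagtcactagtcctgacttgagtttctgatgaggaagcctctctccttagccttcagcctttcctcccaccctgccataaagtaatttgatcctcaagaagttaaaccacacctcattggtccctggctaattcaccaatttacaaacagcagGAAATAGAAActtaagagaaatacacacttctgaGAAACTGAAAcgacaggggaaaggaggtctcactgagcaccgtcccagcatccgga

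Values are MAS5 signals on a linear scale, and changes are CompE minus DMSO on the log2(signal + 16) scale, which understates the fold of dim genes. Array medians lay between 54.7 and 74.8. As a check of the treatment, NOTCH targets were lower with CompE: HES1 (-1.71 ± 0.304, limma adjusted p = 0.00775, 10 of 10 lines), NOTCH3 (-1.34, adjusted p = 0.00692, 9 lines) and MYC (-1.499, adjusted p = 0.0107, 9 lines), with the SE after ±. With the ACTB ratio described below as a covariate the MYC change was -1.06 (adjusted p = 0.057). The 9 T-cell markers summed to between 8480 and 20748 with CompE and between 8485 and 18657 with DMSO, and 2 of the 9 were called between treatments. Myeloid markers summed to between 22.6 and 144 with CompE and between 20.6 and 122 with DMSO, and none of the 4 passed the filter. The ratio of 3′ to 5′ ACTB signal, a sign of RNA quality, was higher with CompE in 9 of 10 lines. It was 9.76 with CompE and 3.32 with DMSO in KOPTK1, against 1.22 to 1.99 with CompE and 1.02 to 1.77 with DMSO in the other lines. In bulk RNA, fewer cells that make a transcript and less of it per cell cannot be told apart.

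IRF7, the transcription factor that amplifies type I interferon production, was higher with CompE in all 10 lines and was the 1 gene of the set that passed the test. It was called higher (1 of 38), and 0 of 38 were called lower. Over all 7695 genes, 303 were called higher (3.94%) and 249 lower (3.24%), 7.17% in all. With each array centred on its median the split over all genes was 116 higher and 340 lower, and IRF1 was then called lower beside IRF7 higher. At an unadjusted p under 0.05 there were 7 of 38 members (18.4%), against 25.1% of all genes. IRF7, IRF9, MX2 and ISG20 lay above 0 (4 of 38, against 15.2% of all genes) and OAS3, IRF1 and GBP1 below 0 (3 of 38, against 9.93%). The median change of the 38 was 0.0062, with 19 above 0 and 19 below 0, and the median over all genes was 0.04, with 58.9% above 0. The median size of a change, sign aside, was 0.13 for members and 0.15 for all genes. The 95% interval of the change lay within 2-fold either way for all 38 members, and within 1.5-fold for 33 of them. Over all genes these intervals lay within 2-fold for 7570 and within 1.5-fold for 6115. The signal ranges with CompE and with DMSO overlapped for all 38. The share over all genes was not worked out, so the overlap is not read as particular to the members.

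**Figure D1:**
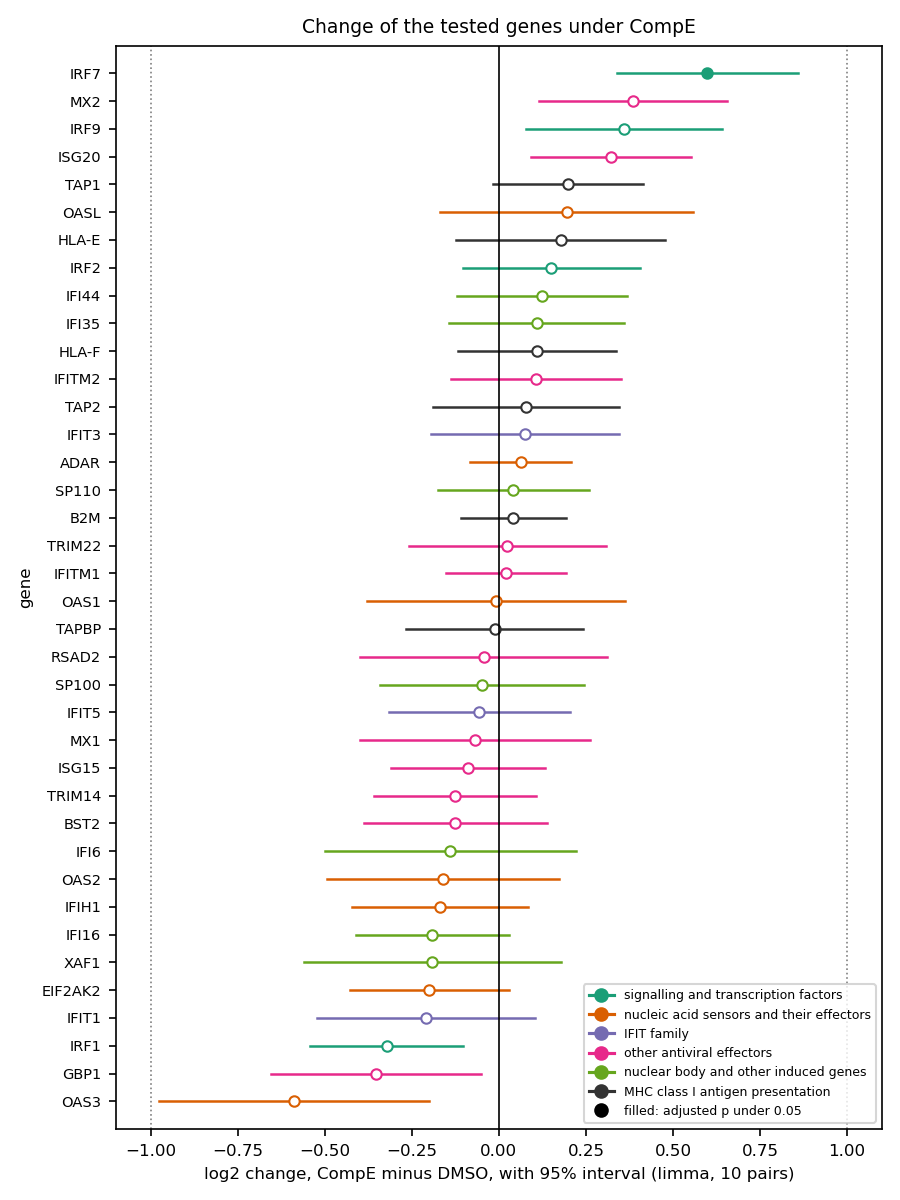
Change of each tested gene, CompE minus DMSO on the log2(signal + 16) scale (horizontal axis), with its 95% interval from limma over 10 lines, sorted by change and coloured by role. All 38 intervals stay between -1 and 1; IRF7 is the 1 gene whose adjusted p was under 0.05.

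Of the transcription factors, IRF7 gave signals of 180 at the lowest (MOLT3), 202 at the median and 582 at the highest (RPMI8402) with CompE, against 82.0 (CCRF-CEM), 164 and 258 (DND41) with DMSO. Every line was higher with CompE, by 0.27 in HPB-ALL at the least and 1.46 in RPMI8402 at the most, although the groups' ranges overlapped. The change was 0.60 ± 0.123 (SE, 10 lines; 95% interval 0.34 to 0.86; limma adjusted p = 0.0138). An exact two-sided sign-flip permutation test of IRF7 alone gave p = 0.00195, the smallest that 10 pairs allow. Leaving out 1 line at a time kept the call each time, with changes between 0.50 without RPMI8402 and 0.63 without HPB-ALL. Without CCRF-CEM, MOLT3 and P12-ICHIKAWA the change was 0.53 and the adjusted p 0.0729, and in those 3 lines alone it was 0.76 with an adjusted p of 0.267.

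IRF9, the DNA-binding subunit of ISGF3, gave 125 to 314 (median 195) with CompE and 87.2 to 207 (median 144) with DMSO, and 8 of 10 lines were higher with CompE. Its change of 0.36 ± 0.132 (95% interval 0.08 to 0.64) did not pass (limma adjusted p = 0.104). It passed without the 3 lines of unsettled medium (0.56, adjusted p = 0.0474), and its value in those 3 lines alone was -0.11. IRF1, the activator induced by interferon gamma, gave 115 to 465 (median 311) with CompE and 142 to 597 (median 350) with DMSO. It was lower with CompE in 9 lines and higher in PF382, and its change was -0.32 ± 0.104 (95% interval -0.54 to -0.10; limma adjusted p = 0.0688). Without PF382 it was -0.39 with an adjusted p of 0.044, the 1 of 10 fits without a line that passed, and without HPB-ALL it was -0.25. IRF2, a factor that competes with IRF1 for the same elements, gave 114 to 263 (median 183) with CompE and 105 to 375 (median 129) with DMSO, and its change was 0.15 ± 0.120 (adjusted p = 0.455). IRF7 and IRF1 lay on opposite sides of 0, and of the 4 factors only IRF7 passed.

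**Figure D2:**
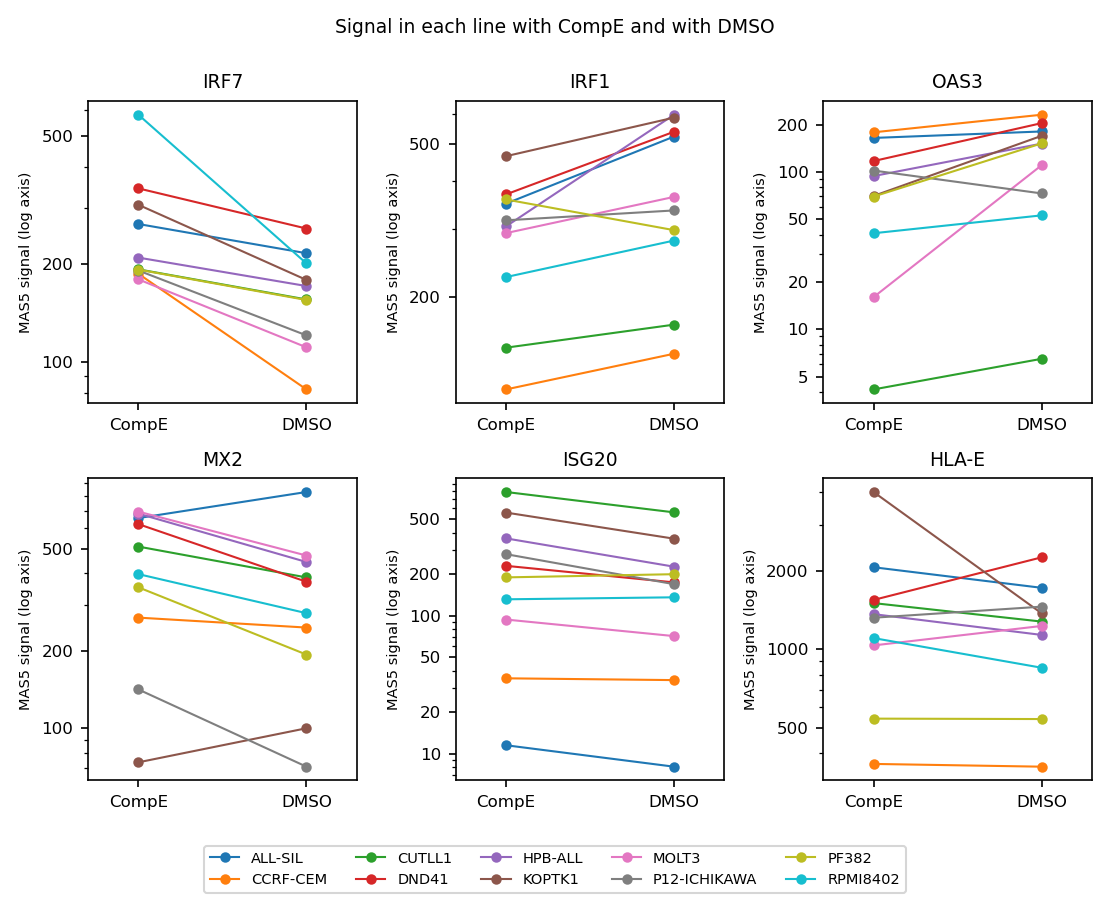
MAS5 signal (log axis) of 6 genes with CompE (left) and with DMSO (right), with 1 line drawn per cell line. IRF7 is higher with CompE in all 10 lines, OAS3 and IRF1 are lower in 9 each, MX2 and ISG20 are higher in 8 each, and the HLA-E line of KOPTK1 (4010 with CompE, 1375 with DMSO) crosses the other lines.

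None of the 7 nucleic acid sensors and their effectors was called in either direction, and their median change was -0.16, with 1 of 7 at an unadjusted p under 0.05. That gene was OAS3, an oligoadenylate synthetase that activates RNase L on double-stranded RNA. OAS3 gave 4.15 (CUTLL1), 82.4 and 179 (CCRF-CEM) at the lowest, median and highest with CompE, against 6.49 (CUTLL1), 152 and 231 (CCRF-CEM) with DMSO. It was lower with CompE in every line but P12-ICHIKAWA, with a change of -0.59 ± 0.183 (95% interval -0.98 to -0.20; limma adjusted p = 0.0596). Without P12-ICHIKAWA the change was -0.70 and the adjusted p 0.0322, the 1 of 10 fits without a line that passed. Without MOLT3, the line with the largest OAS3 change, it was -0.43. The other synthetases gave changes of -0.01 for OAS1 and -0.16 for OAS2, and OASL, a synthetase-like protein without that enzyme activity, gave 0.19. EIF2AK2 (PKR), a kinase that halts translation on double-stranded RNA, gave -0.20, the RNA sensor IFIH1 (MDA5) -0.17, and the RNA-editing enzyme ADAR 0.06 ± 0.069, with signals of 1728 to 2442 with CompE and 1540 to 2419 with DMSO.

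The IFIT proteins bind foreign RNA and block its translation. None of the 3 tested was called or had an unadjusted p under 0.05. Their changes were -0.21 for IFIT1, 0.08 for IFIT3 and -0.06 for IFIT5. IFIT1 gave 16.9 to 501 (median 70.5) with CompE and 24.4 to 334 (median 81.6) with DMSO, and CCRF-CEM was the highest line in both. IFIT2 lay under the filter, with 4.92 to 79.9 (median 27.0) with CompE and 19.2 to 75.9 (median 27.8) with DMSO.

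None of the 11 other antiviral effectors was called, and 3 of them had an unadjusted p under 0.05. MX2, a dynamin-like GTPase that restricts retroviruses, gave 73.4 (KOPTK1), 453 and 696 (MOLT3) with CompE, against 70.6 (P12-ICHIKAWA), 325 and 830 (ALL-SIL) with DMSO. It was higher with CompE in 8 lines and lower in ALL-SIL and KOPTK1, with a change of 0.39 ± 0.127 (95% interval 0.12 to 0.65; limma adjusted p = 0.0737). Without ALL-SIL the change was 0.47 (adjusted p = 0.0442), and without KOPTK1 it was 0.47 (adjusted p = 0.0149); the other 8 fits without a line did not pass. ISG20, an exonuclease of single-stranded RNA, gave 11.5 (ALL-SIL), 210 and 790 (CUTLL1) with CompE, against 8.06 (ALL-SIL), 172 and 562 (CUTLL1) with DMSO. Its change was 0.32 ± 0.108, with 8 lines higher (limma adjusted p = 0.0784). Its other probe set gave a mean change of 0.42, with 9 lines higher, and the mean over both probe sets passed (0.37, adjusted p = 0.0326). GBP1, a guanylate-binding GTPase of the response to interferon gamma, gave 13.2 (RPMI8402), 176 and 291 (KOPTK1) with CompE, against 22.5 (CCRF-CEM), 204 and 495 (MOLT3) with DMSO. Its change was -0.35 ± 0.142 (limma adjusted p = 0.134); ALL-SIL, DND41 and MOLT3 gave -0.98, -0.92 and -0.93, and 3 lines lay above 0.

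Changes of the other effectors of this kind lay between -0.13 and 0.11. The membrane proteins IFITM1 and IFITM2, which block viral entry, gave 0.02 ± 0.082 and 0.11 ± 0.115, and IFITM2 gave 0.012 without PF382. ISG15, a ubiquitin-like modifier, gave -0.09 ± 0.104, with 279 to 1954 (median 811) with CompE and 368 to 1635 (median 783) with DMSO. MX1 gave -0.07, RSAD2 (viperin) -0.04, TRIM22 0.02 and TRIM14 -0.13. BST2 (tetherin), which holds budding virions at the cell surface, gave -0.13 ± 0.124 and was lower with CompE in every line but KOPTK1, without which the change was -0.23 and still not called.

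Of the nuclear body and other induced genes, 7 were tested and none was called or had an unadjusted p under 0.05. SP100, a scaffold of PML nuclear bodies, gave -0.05, and its relative SP110 gave 0.04. The DNA sensor IFI16 gave -0.19, IFI6 -0.14, IFI35 0.11, IFI44 0.12, and the apoptosis-linked XAF1 -0.19. IFI27 lay under the filter with a median of 15.9 with CompE and 7.72 with DMSO, as did IFI44L with 7.604 with CompE and 11.3 with DMSO. IFI44L reached 109 with CompE and 80.3 with DMSO in DND41, its highest line in both.

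**Figure D3:**
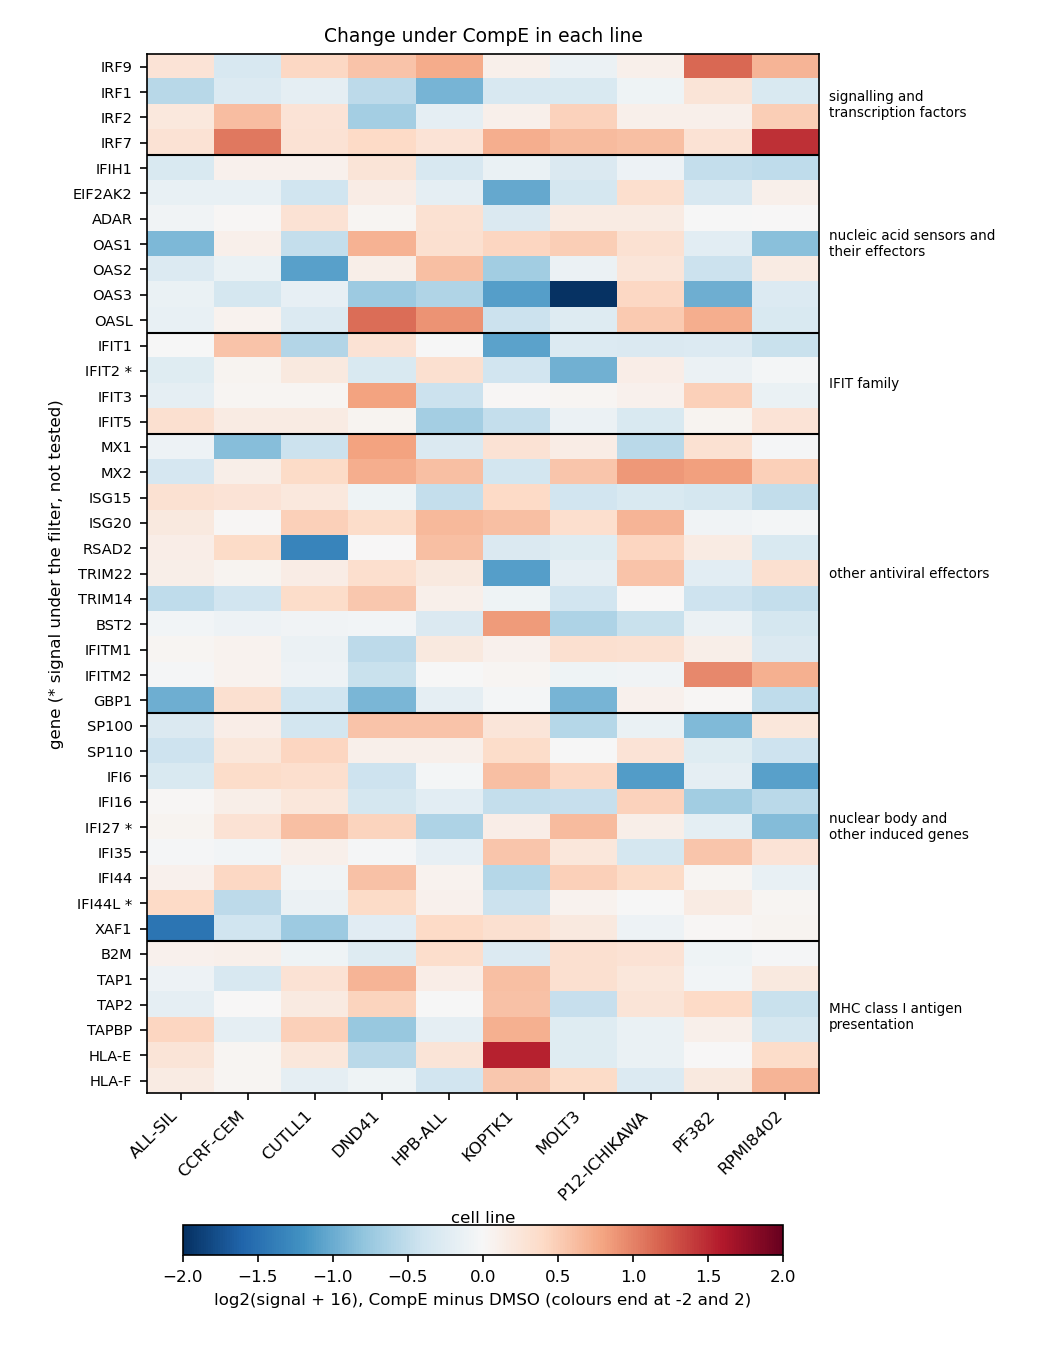
Change in each line, CompE minus DMSO on the log2(signal + 16) scale (colour), for the 41 genes with a probe set (rows, by role) and the 10 lines (columns). IRF7 is above 0 in every column, and most other rows hold both signs.

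None of the 6 class I genes was called or had an unadjusted p under 0.05. Of the 6, 5 lay above 0, against 58.9% of all genes, with a median of 0.09 (0.04 over all genes). However, B2M lay below 0 with quantile normalization, with median centring and without the 3 lines of unsettled medium. With the ACTB covariate TAP2 and HLA-E lay below 0. TAPBP, the 1 gene below 0, lay above 0 without those 3 lines. B2M gave 4372 to 8269 (median 5961) with CompE and 4110 to 8836 (median 6118) with DMSO, with 5 lines higher and 5 lower. Its change of 0.04 ± 0.071 had a 95% interval of -0.11 to 0.19, the narrowest of the set after that of ADAR. TAP1 gave 171 to 562 (median 406) with CompE and 177 to 501 (median 335) with DMSO, and its change was 0.20 ± 0.102 (95% interval -0.02 to 0.41; limma adjusted p = 0.238), with 7 lines higher. TAP2 gave 63.3 to 168 (median 101) with CompE and 60.5 to 163 (median 95.6) with DMSO, and its change was 0.08 ± 0.126 (adjusted p = 0.750). Tapasin gave 573 to 1433 (median 897) with CompE and 434 to 1506 (median 996) with DMSO, and the TAPBP change was -0.01 ± 0.120 (adjusted p = 0.965). The ranges of all 4 genes overlapped between the groups, as they did for all 38 tested members. The share over all genes was not worked out, so this overlap is not read as particular to them.

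The nonclassical heavy chain HLA-E, a ligand of inhibitory receptors on natural killer cells, gave 364 (CCRF-CEM), 1343 and 4010 (KOPTK1) with CompE, against 355 (CCRF-CEM), 1253 and 2252 (DND41) with DMSO. Its change was 0.18 ± 0.142 (limma adjusted p = 0.458), and it was 0.03 when KOPTK1 was left out. KOPTK1 is the line with the high ACTB ratio, and with that ratio as a covariate the HLA-E change was -0.07; the part of RNA quality in it was not tested. The HLA-E probe set, by its name ending in x_at, may also bind transcripts of other genes. The same ending and limit hold for the probe sets used for HLA-F, GBP1, IFI16, SP110 and IFITM2. The 2 other HLA-E probe sets gave mean changes of 0.29 and 0.21. HLA-F, another nonclassical heavy chain, gave 251 to 1330 (median 441) with CompE and 188 to 1167 (median 403) with DMSO, and its change was 0.11 ± 0.107 (adjusted p = 0.565). By line, the median change of the 6 class I genes was 0.59 in KOPTK1 and -0.18 in DND41, with the other 8 lines between these values.

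Within single lines 1 array stands against 1 and no test is possible. Changes of 2-fold or more were counted on the log2(signal + 16) scale, which misses some such changes of dim genes. KOPTK1 held the most: 1 of 38 members was higher and 4 were lower with CompE (13.2%), against 16% of all genes in that line. KOPTK1 is also the line with the high ACTB ratio (9.76 with CompE, 3.32 with DMSO), and the part of RNA quality in this was not tested. In each of the other lines 0 to 2 members moved by 2-fold or more on that scale. Of all genes, 8.46% did so in DND41, 6.81% in HPB-ALL, 5.68% in MOLT3 and 3.40% in PF382. The share was 2.94% in RPMI8402, 2.91% in CUTLL1, 2.51% in ALL-SIL, 2.17% in P12-ICHIKAWA and 1.26% in CCRF-CEM. The median change of the members per line ran from -0.11 in MOLT3 to 0.11 in P12-ICHIKAWA.

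For a typical member, the level in DMSO spread more widely over the lines than the change with CompE did. Over the 10 DMSO arrays the SD of the log2 level had a median of 0.65 over the members and of 0.46 over all tested genes, and 28 of the 38 members lay above the value for all genes. Of the 38, 6 (15.8%) lay above the value that 10% of all genes exceed, an SD of 1.09. The SD of the change over the same 10 lines had a median of 0.38 for members and 0.37 for all genes. A member's level with CompE followed its level with DMSO across the 10 lines, with a median Pearson r of 0.84, against 0.72 over all genes. The highest line was the same in both treatments for 21 of 38 members, and so was the lowest line for 21 of 38. The shares over all genes were not worked out, so these counts are not read as particular to the members.

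IFITM2 had the largest spread, an SD of 2.10 on the log2 scale in DMSO. IFITM2 gave 153 (HPB-ALL), 675 and 7225 (ALL-SIL) with CompE, against 126 (PF382), 603 and 7305 (ALL-SIL) with DMSO. ALL-SIL, CCRF-CEM and P12-ICHIKAWA were high in both treatments, with 7305, 3989 and 2799 in DMSO, and HPB-ALL, PF382, KOPTK1 and MOLT3 were low, with 206 or less. IFITM1, its neighbour on chromosome 11, gave 914 (HPB-ALL), 2500 and 9787 (ALL-SIL) with CompE, against 796 (HPB-ALL), 2517 and 9511 (ALL-SIL) with DMSO, an SD of 1.18 there. A probe set annotated to both genes was not used, but the IFITM family is similar in sequence, so the signals of IFITM1 and IFITM2 may share transcripts.

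TRIM22, a ubiquitin ligase that restricts viral transcription, was next with an SD of 1.96. TRIM22 gave 8.50 (CUTLL1), 344 and 1068 (DND41) with CompE, against 6.11 (CUTLL1), 279 and 1352 (KOPTK1) with DMSO. In CUTLL1 it was near the background of the array in both treatments, and in HPB-ALL it was 38.4 with CompE and 31.4 with DMSO. GBP1, with an SD of 1.47, was also low in CUTLL1, at 21.2 with CompE and 33.1 with DMSO, and in CCRF-CEM and RPMI8402. ISG20, with an SD of 1.36, had another order: CUTLL1 was its highest line, and ALL-SIL its lowest.

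**Figure D4:**
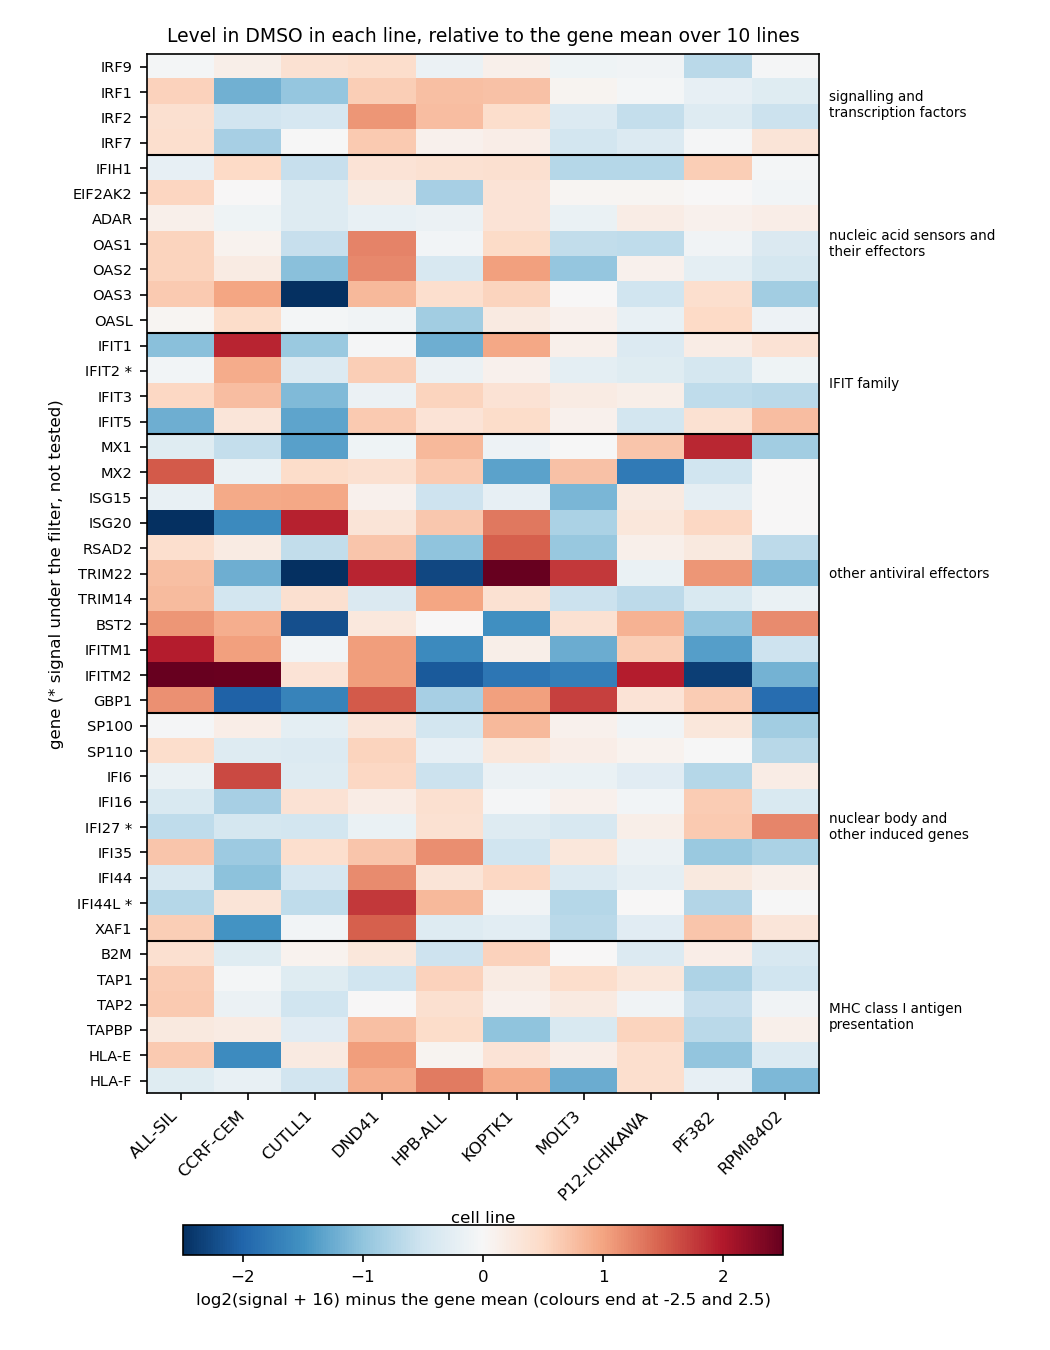
Level in DMSO in each line (columns) as log2(signal + 16) minus the gene's mean over the 10 lines (colour), for the 41 genes (rows, by role); an asterisk marks genes under the filter. TRIM22, IFITM2, GBP1 and ISG20 show the strongest colours, and the lines that are high differ from gene to gene.

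No single line was high for the whole set. DND41 was the highest DMSO line for 10 of the 38 members, ALL-SIL for 6 and KOPTK1 for 5, while CUTLL1 was the lowest for 8 and CCRF-CEM for 7. Over the 10 DMSO arrays, the 703 pairs of members had a median Spearman rho of 0.15, with 4.13% at 0.7 or more, against 0.0061 and 1.77% over all pairs of tested genes. These are descriptions over 10 arrays that share a platform and a scaling. The 9 pairs that lie within 100 kb of each other in the RefSeq annotation had a median of 0.77, and the 694 other pairs 0.15. The OAS genes, which sit side by side, had rho of 0.82 for OAS1 and OAS3, 0.82 for OAS2 and OAS3 and 0.78 for OAS1 and OAS2. IFITM1 and IFITM2 had 0.88, and TAP1 and TAP2 had 0.77. The neighbours MX1 and MX2 did not follow each other (-0.18), nor did IFIT1 and IFIT3 (0.02). Some pairs of distant genes are given here, picked after their values were seen. GBP1 and SP110 had 0.88, RSAD2 and B2M 0.85, and GBP1 and TRIM22 0.79, while ISG20 and BST2 ran in opposite order (-0.89). GBP1, RSAD2, TRIM22, ISG20 and BST2 each had a signal at or under 32.5 on at least 1 DMSO array. So did OAS2, OAS3, MX1, IFIT1 and IFIT3, and OAS1 had such a signal on 4 of the 10.

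The wider pathway was read from 5 lists of further genes. Of 16 genes of interferon receptors and their signalling, 14 were tested and none was called, with 4 at an unadjusted p under 0.05 (28.6%, against 25.1% of all genes) and a median change of 0.10 (0.04 over all genes). The receptor chains gave 0.11 for IFNAR1 (limma adjusted p = 0.621), 0.09 for IFNAR2 (0.613), 0.04 for IFNGR1 (0.843) and -0.23 for IFNGR2 (0.225). JAK1, the kinase shared by both receptors, gave 0.23 ± 0.070, with 9 lines higher (adjusted p = 0.0537), and TYK2 gave 0.35 ± 0.136, with 8 lines higher (0.125). The list of upstream nucleic acid sensing held 19 symbols, in which RIGI and DDX58 name 1 gene, as do STING1 and TMEM173. Of these symbols 11 were tested and none was called, with 1 at an unadjusted p under 0.05 (9.09%). Of the 15 interferon genes, 14 had a probe set and 13 of these lay under the filter; IFNA17, the 1 that was tested, gave 0.28 and was not called.

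Of 28 further interferon-stimulated genes, 23 were tested, of which 0 were called higher and 1 lower, with 5 at an unadjusted p under 0.05 (21.7%, against 25.1% of all genes). LY6E, a membrane-anchored protein that restricts coronavirus entry, was lower with CompE in all 10 lines. LY6E gave 8.70 to 163 (median 51.4) with CompE and 20.02 to 265 (median 69.4) with DMSO, and its change was -0.48 ± 0.125 (limma adjusted p = 0.0311). The LY6E call held in 3 of the 10 fits that each left out 1 line and under 6 of 13 other alternatives. It was lost without the 3 lines of unsettled medium (-0.48, adjusted p = 0.125), with the ACTB covariate (0.0517), with no filter on low signal (0.0638) and with a random block (0.0965). Of 19 further class I genes, 16 were tested, of which 1 was called higher and 0 lower. At an unadjusted p under 0.05 there were 6 (37.5%, against 25.1% of all genes, of which 7.17% were called). Of these 6, CALR (0.55) and HLA-B (0.16) lay above 0. PDIA3 (-0.29), PSME1 (-0.25), PSMB8 (-0.25) and PSMB9 (-0.23) lay below 0. The median change of the 16 was -0.085, with 7 above 0 and 9 below 0. The gene called was CALR, calreticulin, a chaperone of the peptide-loading complex and of many other glycoproteins. CALR gave 851 to 2769 (median 1586) with CompE and 687 to 1911 (median 965) with DMSO, and its change was 0.55 ± 0.132, with 9 lines higher (limma adjusted p = 0.0241). Averaged over all its probe sets the CALR change was 0.27 (adjusted p = 0.266), and the call held in 8 of the 10 fits that left out 1 line and under 8 of 14 other alternatives. It was lost without the 3 lines of unsettled medium (0.44, adjusted p = 0.111) and with the ACTB covariate (0.48, adjusted p = 0.0964).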

How the data were processed

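RNA of 20 cultures was measured on Affymetrix 3′ arrays. The authors deposited linear signal intensities made with MAS5, per the submitters' processing notes. Its version and settings are not given in the sources. The mean of each array without its extremes was 249.8 to 249.9, so every array had been scaled to 1 target, and a change in total RNA per cell cannot be seen. A column kit was used for the RNA and biotin as the label, per the labels' protocols.

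Of 22277 probe sets, 62 controls were left out. The platform annotation gave 1 gene for 19064 others, several for 1043, and did not list 2164; only those with 1 gene were named, and 19052 of them matched the RefSeq gene table. For each of 11963 genes the probe set with the highest mean log2(signal + 16) was used. A filter at the 40th percentile of such means over all probe sets outside the controls, a signal of 32.5, left 7695 genes. Changes were fitted in limma 3.58.1 (R 4.3.3) with a fixed effect for each cell line, eBayes with an intensity trend (7.39 prior and 9 residual degrees of freedom) and two-sided Benjamini-Hochberg adjustment over 7695 genes at 0.05. Arrays were paired by the line named in the label of each. Lines served as replicates, and the fixed effect takes up their differences in level. A p-value reflects how far the change varied over these 10 lines, with culture and array noise included, since each line had 1 array per treatment. Through eBayes it also draws on the spread of other genes. The number of lines limits the precision. The fit was tested on simulated data.

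The members, the other gene lists and the marker lists were chosen with earlier results of these data known. Genes given with full values are members past the threshold, the transcription factors, the class I genes, the 5 members with the largest SD in DMSO, called genes of the other lists and 6 receptor and kinase genes. OAS3, MX2, GBP1, IFIT1, ISG15, ADAR, IFIT2, IFI27 and IFI44L were given more values after theirs were seen. B cell, erythroid, epithelial and fibroblast markers summed to 77.8 to 1948, 12.0 to 78.6, 48.0 to 230 and 52.7 to 215 with CompE, and to 98.5 to 2565, 2.72 to 24.9, 49.4 to 216 and 30.2 to 160 with DMSO. Promoters are RefSeq's, matched by symbol for 33 of 42 genes. Alternatives changed the pseudocount, filter, scaling, probe set choice, block, RNA quality covariate, test and lines used.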

Additional observations from a re-analysis of the deposited data

Results flagged for a closer look

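Of 123 groups of 10 values examined over 41 genes, 11 (8.94%) held a line far from the other 9. The rule flags about 1 in 20 groups of independent, normally distributed values. Groups of the same gene are not independent, and some signals lie near background. The share over all genes was not worked out, so no excess in these genes is read from the flags. For 4 of the 11 groups the value is the change, CompE minus DMSO on the log2(signal + 16) scale. HLA-E changed by 1.53 in KOPTK1, against -0.54 to 0.37 in the other lines, TRIM22 by -1.10 in KOPTK1, against -0.22 to 0.57, and BST2 by 0.85 in KOPTK1, against -0.61 to -0.06. RSAD2 changed by -1.31 in CUTLL1, against -0.31 to 0.60, with signals of 3.25 with CompE and 31.9 with DMSO. The 3 from KOPTK1 come with the highest ACTB 3′ to 5′ ratio of all lines, 9.76 with CompE and 3.32 with DMSO, and the part of RNA quality in them was not tested.

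For the other 7 the value is a level, log2(signal + 16). With CompE, IFIT1 stood at 9.01 in CCRF-CEM, against 5.04 to 6.82 in the other lines, IFI44 at 9.401 in DND41, against 7.01 to 8.02, and SP110 at 7.34 in RPMI8402, against 8.19 to 9.10. With DMSO, IFI6 stood at 8.58 in CCRF-CEM, against 6.21 to 7.44. Also with DMSO, IRF9 stood at 6.69 in PF382, against 7.22 to 7.80, OAS3 at 4.49 in CUTLL1, against 6.11 to 7.95, and OASL at 5.24 in HPB-ALL, against 5.92 to 6.60.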

How the results depend on the processing

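IRF7 was called under 10 of 14 alternatives and in all 10 fits that left out 1 line. It was not called without CCRF-CEM, MOLT3 and P12-ICHIKAWA, in those 3 lines alone, without the block for cell line, or by the exact sign-flip permutation test adjusted over all genes (adjusted p = 0.058). The number of members called higher was 2 with the mean of all probe sets (IRF7 and ISG20) and 0 in limma without the replicate block, 0 in the 3 lines alone and 0 by the sign-flip test. At an unadjusted p under 0.05 those 3 settings gave 1, 3 and 4 members higher. All these 3 settings called 0 of all genes. Without the 3 lines the 1 member called was IRF9, not IRF7. The number called lower was 1 with a pseudocount of 64 (OAS3) and 1 with median centring (IRF1), where OAS3 changed by -0.39 (limma adjusted p = 0.0481) and IRF1 by -0.39 (limma adjusted p = 0.0446). Leaving out 1 line gave 1 to 2 members higher, 0 to 1 lower, and a median change of -0.014 to 0.033. Over all genes, 303 higher and 249 lower became 154 and 164 under the ACTB ratio covariate, 157 and 141 without the 3 lines, 96 and 85 without HPB-ALL, and 562 and 469 without KOPTK1. Of 1158 values for 49 genes under these alternatives, 1052 kept their direction and their side of the threshold, 58 turned their sign, 12 passed where the reported value did not and 36 no longer passed. The sign turned for the following values, among them IRF9 (0.36 as reported) and TYK2 (0.35 as reported). With median centring, ADAR gave -0.0091, B2M -0.030, IFITM1 -0.051, IFNGR1 -0.032, SP110 -0.030 and TRIM22 -0.047, and with quantile normalization B2M gave -0.017. With the ACTB covariate, HLA-E gave -0.070, IFIT5 0.091, SP110 -0.075 and TAP2 -0.076. With a pseudocount of 64, OAS1 gave 0.028, RSAD2 0.0046 and TRIM22 -0.0092, and with the mean of all probe sets IFIT5 gave 0.016, OAS1 0.017 and SP100 0.021. Without the 3 lines, B2M gave -0.042, IFI44 -0.0037, IFITM1 -0.071, MX1 0.077, SP100 0.013, SP110 -0.0095, TAPBP 0.060 and TRIM22 -0.029. In the 3 lines alone, HLA-E gave -0.12, IFI16 0.038, IFI35 -0.060, IFITM2 -0.028, IRF9 -0.11, OAS1 0.30, RSAD2 0.19, TAP2 -0.061 and TYK2 -0.041. Leaving out 1 line gave IFIT3 -0.0057 to 0.13, IFIT5 -0.097 to 0.014, IFITM1 -0.014 to 0.081, IFNGR1 -0.011 to 0.12, MX1 -0.17 to 0.017, OAS1 -0.086 to 0.092, RSAD2 -0.11 to 0.098, SP100 -0.12 to 0.044, SP110 -0.0014 to 0.092, TAPBP -0.092 to 0.070 and TRIM22 -0.036 to 0.15. The causes were not tested. Signals at or under 32.5 are close to background, where MAS5 values are noisy, and 16 of the 38 tested members had such a signal on at least 1 array, among them GBP1, ISG20, TRIM22, OAS3, MX1 and OAS2, as did the 3 untested genes.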

Other observations

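Probe sets of 1 gene did not always move alike. For the DNA sensor IFI16, the probe set used gave a mean change of -0.19 (4 of 10 lines higher with CompE) and another gave -0.16 (4 lines higher), while the last gave -0.58, with 1 line higher. For tapasin, TAPBP, the probe set used gave -0.01, while another, dim probe set gave -0.54, with 1 of 10 lines higher. The 3 probe sets of HLA-E had their highest change in KOPTK1 (1.53), HPB-ALL (0.89) and KOPTK1 (1.04). These values were picked after they were seen and carry no test.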
